A study of Salmo salar with 8 samples.

Results

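FASN, ELOVL6, FADSD6 and FADSD5 are the genes of fatty acid synthesis, elongation and desaturation that were found among the probes which the authors' paired test had called between Day 5 and Day 1 adherent head kidney leukocytes (HKLs) of Atlantic salmon. The authors' annotation of their called probes was searched for the 3 synthase and desaturase names and for names beginning with ELOVL. All matching probes were taken, which gave 6 probes with 4 gene names among 2139 probes with 1451 gene names. The same samples and the same contrast chose them. Their Day 5 and Day 1 values are therefore given as a description, and no test made here supports them. Probes of these genes that were not called carry no gene name here and were not analysed. The paper also tested fasn by RT-qPCR in fish other than those on the arrays. It reports a significant rise on the later day. The other genes named above were not part of that RT-qPCR. The names FASN and FADSD5 had 2 probes each, which matched different genes, and ELOVL6 and FADSD6 had 1 each. The paper's own list of selected probes gives 3 probes for fasn and 1 for fadsd5. The reason for the difference was not looked into.

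The head kidney is the blood-forming organ of teleost fish, and its leukocytes that stuck to the culture dish were kept. Untreated cells from 4 fish were isolated on a density gradient and grown in serum-supplemented L-15 medium. They were lysed at 120 h (Day 5) and at 24 h (Day 1), counted from seeding, with non-adherent cells rinsed off from 24 h onward. The paper hybridised 5 fish and removed 1. It names a labelling error, and elsewhere writes that Fish 5 did not group by day. No value of that fish was used here. Cy5-labelled RNA of every sample shared an array with a Cy3-labelled pool of Day 5 and Day 1 RNA (8 arrays, no dyes swapped), so a log2 ratio of 0 means the same level as in the pool. Adherent HKLs are a mixture of cells, and a smaller number of cells of a type cannot be told apart from less RNA per cell.

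Fatty acid synthase, encoded by FASN, builds saturated fatty acids, mainly palmitate, from acetyl-CoA and malonyl-CoA, with NADPH as the reductant. The elongase encoded by ELOVL6 lengthens palmitate and palmitoleate by one carbon pair at a time, whereas the fatty acyl desaturases put double bonds into polyunsaturated chains. In salmonids, desaturases of the delta-6 and delta-5 kind act in turn on the way from plant-type polyunsaturated fatty acids to arachidonic and eicosapentaenoic acid, which leukocytes use for membranes and as precursors of eicosanoids. In mammals, the genes of these enzymes and those of sterol synthesis are targets of the sterol regulatory element-binding proteins, which INSIG proteins hold back in the endoplasmic reticulum.

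The probes are 60-base oligonucleotides, and their names rest on best matches of these and of the longer contigs they were designed from. In the RefSeq annotation of the assembly Ssal_v3.1, 4 of the 6 probes had a listed transcript, and the 2 FASN probes were placed through their gene identifiers. The FASN probes belong to separate genes on different chromosomes, LOC106610271 (C004R046) and LOC106589612 (C220R061), both described as fatty acid synthase-like. The ELOVL6 probe C193R045 matched a transcript of LOC106611586, which is not the gene that carries the symbol elovl6 in that annotation. FADSD6 C038R110 matched fadsd6 over 60 of its bases with 100% identity, and FADSD5 C066R040 matched fadsd5 with 98.3%. The other probe named FADSD5, C223R038, matched the gene d6fadc, described as delta-6 fatty acyl desaturase-like, with 100% identity. The genes fadsd5 and d6fadc are direct neighbours, with 0 annotated genes between them, and fadsd6 lies on the same chromosome with 58 genes between it and fadsd5.

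Coding sequence was found in the contigs of 2 of the probes. It is shown with a motif of the enzyme family that each probe is named for. The contig of ELOVL6 C193R045 is open over 132 codons. A stretch of 300 bases from it is printed in its reading frame. Capitals mark the codons of the histidine box HXXHH, which fatty acid elongases carry, though not they alone. For C223R038, 201 bases from the first in-frame start codon are printed. The capitals there mark the codons of the HPGG motif, which binds heme in the cytochrome b5-like domain at the start of delta-6 and delta-5 desaturases.
ELOVL6 C193R045: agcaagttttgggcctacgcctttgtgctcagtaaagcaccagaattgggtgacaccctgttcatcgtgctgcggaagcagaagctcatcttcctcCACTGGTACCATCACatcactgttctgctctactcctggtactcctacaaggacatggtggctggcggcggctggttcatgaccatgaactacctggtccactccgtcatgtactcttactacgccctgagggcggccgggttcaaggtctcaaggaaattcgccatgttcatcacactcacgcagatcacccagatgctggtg
FADSD5 C223R038: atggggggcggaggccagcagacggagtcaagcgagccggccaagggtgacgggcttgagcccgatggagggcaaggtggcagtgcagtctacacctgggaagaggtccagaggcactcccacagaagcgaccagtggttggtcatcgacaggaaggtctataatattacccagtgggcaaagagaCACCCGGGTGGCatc
Of 571 contigs searched on both strands, 6.13% held letters that match the HXXHH codons in any frame and 1.23% held letters that match the HPGG codons. A match is a description of the letters. The other 4 contigs had no stop-free run longer than 63 codons, and none of their sequence is shown. The HPGG motif is shared by delta-5 and delta-6 enzymes and does not settle which of them C223R038 reports. Nor does the HXXHH box alone settle that C193R045 reports an elongase.

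Hybridisations were spread over 3 slides. Fish 1 had its 2 arrays on the first slide and Fish 3 on the third. Fish 2 and Fish 4 had their Day 5 arrays together on the second slide, and their Day 1 arrays on the first and the third. The negative control spots of each array set a limit of brightness, their mean plus 2 SD, which in Cy5 lay between 431 and 693 on the Day 5 arrays and between 159 and 611 on the Day 1 arrays. Between 40.4% and 45.7% of the probes exceeded it on Day 5 arrays and between 41.6% and 51.3% on Day 1 arrays. In limma's fit with fish as a block, which tested 38695 probes, 422 were higher at Day 5 at an adjusted p under 0.05 (1.09%) and 362 were lower (0.936%). An unadjusted p under 0.05 was obtained for 5139 probes, and each change rests on at most 4 differences within fish.

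All 6 probes were higher at Day 5 than at Day 1 in each fish that was measured at both times. Of the 6, 4 were past the adjusted threshold in the fit over all probes, where 1.09% of all tested probes were past it on the higher side. In 6 of 6 the lowest Day 5 value lay above the highest Day 1 value, against 5.32% of all tested probes. Both counts follow from the choice of the members. The fitted log2 fold changes, Day 5 over Day 1, ran from 1.33 to 4.40, with a median of 2.18, beside a median of -0.004 over all tested probes.

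FASN was measured by a bright probe at both times. The probe C004R046 had log2 ratios of 0.61, -0.96, 0.16 and 2.13 in the Day 5 HKLs of Fish 1 to Fish 4, against -2.32, -1.62, -2.53 and -2.07 in their Day 1 HKLs. The Day 5 values spread over a wide range, with Fish 4 highest and Fish 2 lowest, while the Day 1 values lay close together and below all of them. The mean was 0.49 ± 1.28 at Day 5 and -2.14 ± 0.39 at Day 1 (SD, n = 4 fish each), and the fitted log2 fold change was 2.62 (SE 0.46), or 6.16-fold. Its Cy5 spots had signals of 3324, 1873, 3464 and 12530 on the Day 5 arrays and of 731, 1235, 775 and 760 on the Day 1 arrays, all above the negative-control limit. The reference channel of the same spots lay between 2664 and 4688 on Day 5 arrays and between 3378 and 5519 on Day 1 arrays.

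The second FASN probe, C220R061, reports the other fatty acid synthase-like gene. Its log2 ratios were 0.44, -0.58, 0.25 and 1.49 in Day 5 HKLs of Fish 1 to Fish 4, against -2.16, -1.18 and -1.66 in Day 1 HKLs of Fish 1 to Fish 3. The Day 1 spot of Fish 4 did not exceed its local background by 2 SD in Cy5 and was left out, so the fit used 3 differences. Days did not overlap, and the order of the fish was that of the first FASN probe, Fish 1, Fish 3 and Fish 2 from the largest to the smallest difference. The mean was 0.40 ± 0.85 at Day 5 (SD, n = 4) and -1.67 ± 0.49 at Day 1 (SD, n = 3), and the fitted log2 fold change of 1.70 (SE 0.43) was not past the threshold. All 8 of its Cy5 signals were above the negative-control limit.

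ELOVL6 was dim at Day 1. The probe C193R045 had log2 ratios of 0.32, -0.12, -0.080 and 1.98 in Day 5 HKLs of Fish 1 to Fish 4, against -1.44, -1.17, -1.91 and -0.87 in Day 1 HKLs. Fish 4 stood above the other Day 5 samples and also had the highest Day 1 value, and the days did not overlap. The mean was 0.52 ± 0.99 at Day 5 and -1.35 ± 0.44 at Day 1 (SD, n = 4 each). Its Cy5 signals were 809, 705.5, 433 and 2598 on Day 5 arrays, of which 3 of 4 exceeded the negative-control limit, and 153, 519, 168 and 446 on Day 1 arrays, of which 0 of 4 did. The fitted log2 fold change of 1.87 (SE 0.34), or 3.66-fold, was past the threshold, but no Day 1 array was above the limit. A rough bound of at least 3.36-fold higher was computed, with the Day 5 spot of Fish 3 also not above the limit. Such bounds set the mean Day 5 Cy5 signal against a floor on each Day 1 array, after loess and Aquantile normalization. The floor was the lowest signal above the limit, or the probe's own Day 1 signal where that was higher. The bounds are open to dye bias, since no dyes were swapped, and leave out the spread between fish. Bounds computed in this way came out above the fitted change for FADSD6, MCAT and the INSIG1 probe C054R074, so they are no strict lower limits.

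FADSD6, the delta-6 fatty acyl desaturase, is the enzyme that starts the desaturation of polyunsaturated fatty acids in salmon. The probe C038R110 had log2 ratios of 0.48, -0.31, 0.40 and 1.25 in Day 5 HKLs of Fish 1 to Fish 4, against -1.15, -1.01 and -1.27 in Day 1 HKLs of Fish 1 to Fish 3. The Day 1 spot of Fish 4 was again left out for its local background. The 3 Day 1 values lay within a narrow range under all Day 5 values, with means of 0.45 ± 0.64 at Day 5 (SD, n = 4) and -1.15 ± 0.13 at Day 1 (SD, n = 3). The fitted log2 fold change of 1.33 (SE 0.38) over 3 fish was not past the threshold. All 4 Day 5 spots and 0 of 4 Day 1 spots exceeded the negative-control limit, with Cy5 signals between 568 and 1807 at Day 5 and between 91.4 and 373 at Day 1. No bound is given, since the one computed from the Cy5 channel came out above the probe's own fitted fold of 2.52.

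FADSD5 encodes the desaturase that acts after the delta-6 step. The probe C066R040, which matched the delta-5 desaturase gene itself, had log2 ratios of 1.05, 0.18, 0.59 and 1.75 in Day 5 HKLs of Fish 1 to Fish 4, against -3.50, -3.20, -3.68 and -3.67 in Day 1 HKLs. The lowest Day 5 value stood 3.38 above the highest Day 1 value on the log2 scale, both from Fish 2. The mean was 0.89 ± 0.67 at Day 5 and -3.51 ± 0.22 at Day 1 (SD, n = 4 each), and the fitted log2 fold change was 4.40 (SE 0.36), or 21.2-fold. Cy5 signals were 3370, 3597, 3363 and 10020 at Day 5, all above the limit, and 223, 443, 226 and 292 at Day 1, of which only that of Fish 1 was above it. With 3 of 4 Day 1 spots not above the limit, the 21.2-fold and the gap of 3.38 rest on Day 1 values that were mostly not measured above background.

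The probe C223R038, named FADSD5 but matching d6fadc, had log2 ratios of 0.30, 0.44, 0.009 and 2.35 in Day 5 HKLs of Fish 1 to Fish 4, against -2.31, -1.28, -1.75 and -1.50 in Day 1 HKLs. Fish 4 was high at Day 5 and the other fish lay close together, as with ELOVL6. The mean was 0.77 ± 1.06 at Day 5 and -1.71 ± 0.44 at Day 1 (SD, n = 4 each), and the fitted log2 fold change of 2.48 (SE 0.38), or 5.60-fold, was past the threshold. Cy5 signals exceeded the limit on 3 of 4 Day 5 arrays, not on that of Fish 3, and on 0 of 4 Day 1 arrays. The rough bound was at least 3.92-fold higher.

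**Figure D1:**
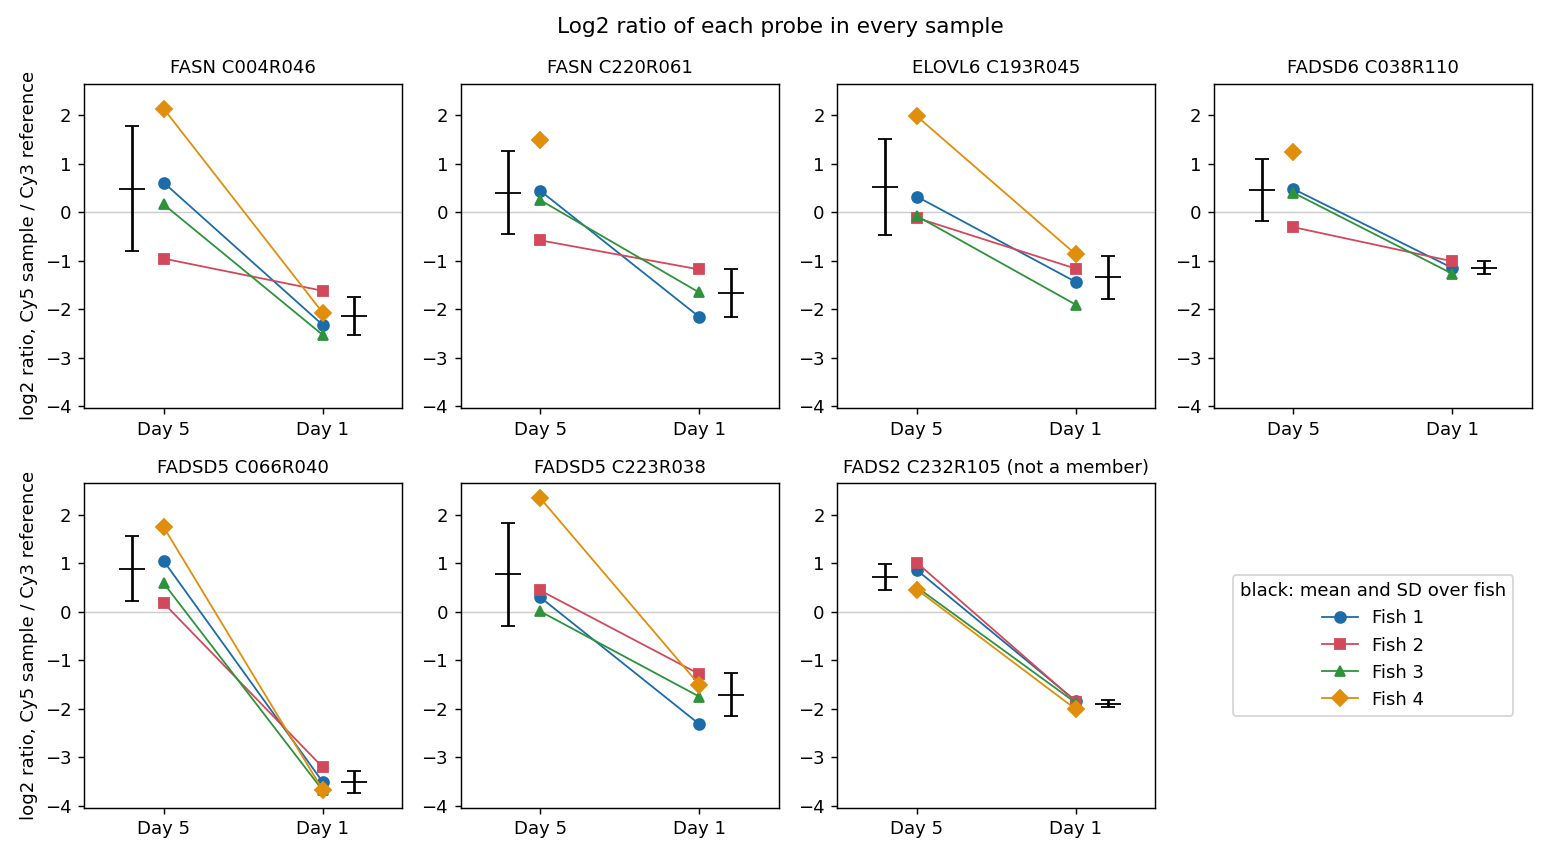
Log2 ratio of Cy5 sample over Cy3 reference (vertical axis) at Day 5 (left of each panel) and Day 1 (right), for the 6 member probes and for FADS2; each line joins the samples of 1 fish, and black bars give mean and SD over the fish. The Day 5 points lie above the Day 1 points in every panel, with Fish 4 highest at Day 5 in 6 of 6 member probes.

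**Figure D2:**
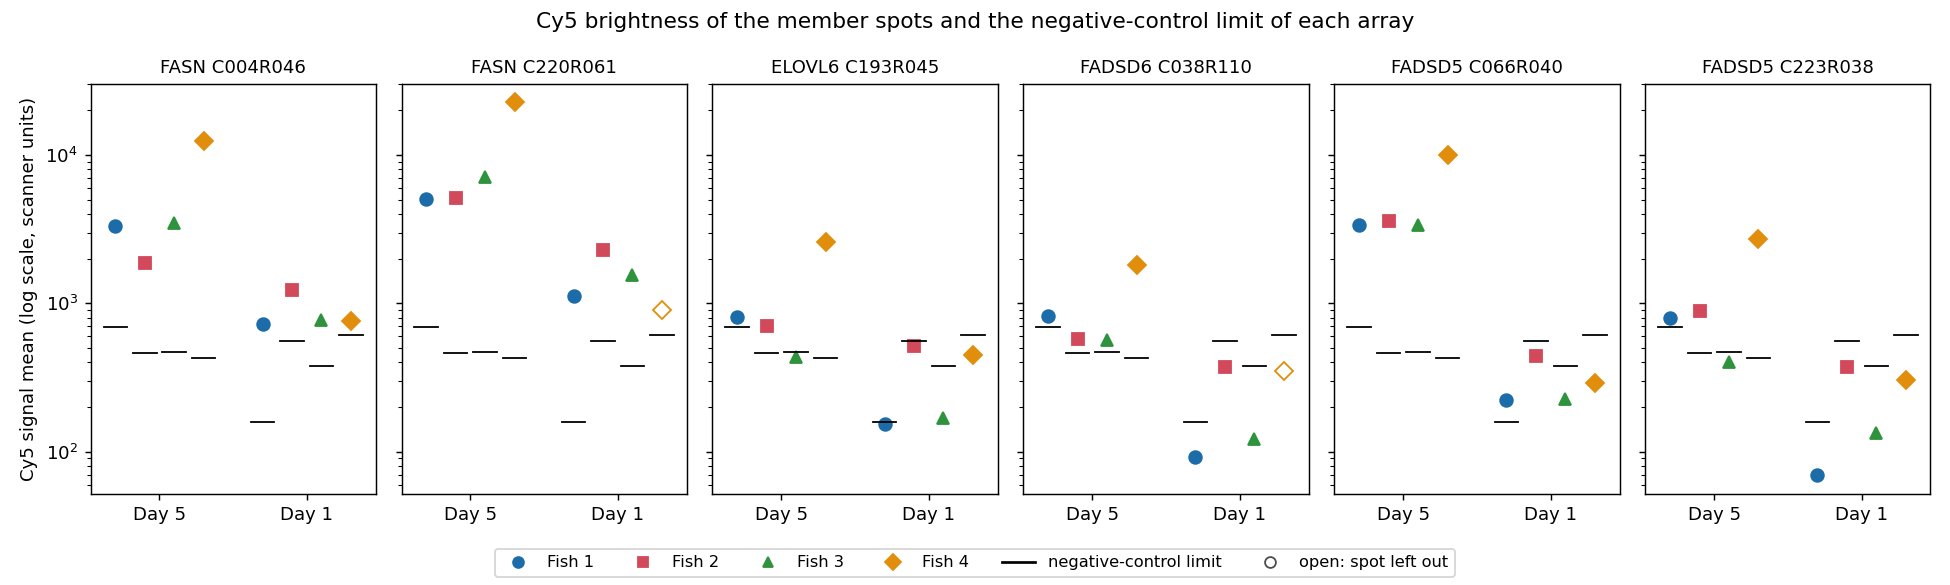
Cy5 signal mean of each member spot (vertical axis, log scale, scanner units) on the 4 Day 5 arrays (left of each panel) and the 4 Day 1 arrays (right); black ticks are each array's negative-control limit and open symbols are spots left out. FASN spots stand above the ticks on both days, while the ELOVL6, FADSD6 and FADSD5 C223R038 spots do not exceed them at Day 1.

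The size of the difference varied between fish, and in a like order across the members. For FASN C004R046, Day 5 minus Day 1 was 2.93, 0.66, 2.69 and 4.20 in Fish 1 to Fish 4. ELOVL6 differed by 1.76, 1.05, 1.83 and 2.85, FADSD5 C066R040 by 4.55, 3.38, 4.27 and 5.41, and FADSD5 C223R038 by 2.61, 1.72, 1.76 and 3.85. Fish 2 had the smallest measured difference in 6 of 6 probes. Fish 4 had the largest in each of the 4 probes with a value in all 8 samples, and in 3 of these 4 the order from large to small was Fish 4, Fish 1, Fish 3 and Fish 2. With all spots kept, the differences of Fish 4 in FASN C220R061 and FADSD6 were 4.58 and 2.82, the largest of the 4 fish in both. In the deposited processed log2 ratios, however, Fish 4 was largest in 3 of 6 probes, and Fish 1 exceeded it in ELOVL6 (5.86 in Fish 1, 4.56 in Fish 4), FADSD6 (5.65 and 3.17) and FASN C220R061 (2.59 and 2.56).

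In 5 of 6 probes Fish 2 had the lowest Day 5 value, and in 5 of 6 it had the highest measured Day 1 value. In 3 of these 5 probes that Day 1 spot did not exceed its negative-control limit, so its rank at Day 1 is not measured above background there. Fish 4 had the highest Day 5 value in 6 of 6. The SD over fish was larger at Day 5 than at Day 1 in 6 of 6 probes, and in the 4 with complete values, whereas this held for 55.3% of the 378 probes past the threshold on the higher side with 4 differences and for 51.3% of all 26008 such tested probes. In 4 of the 6 members at most 1 Day 1 spot exceeded the negative-control limit, and the part of this in the spread was not tested. Among the 378 probes, Fish 2 had the smallest difference in 22% and Fish 4 the largest in 19.6%, and both held in 7.67%. Over all 26008 probes, both held in 8.64%. The 6 probes are no independent measurements of the order, since they come from the same RNA, arrays and fish, and with 4 fish the order was not tested.

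The smallest and the largest differences both came from fish whose Day 5 arrays lay on the second slide and whose Day 1 arrays lay elsewhere. The part of the slide in the order was not tested. In Fish 1 and Fish 3, whose arrays lay on 1 slide each, the mean difference was 2.81 for FASN C004R046, 2.25 for FASN C220R061, 1.79 for ELOVL6, 1.65 for FADSD6, 4.41 for FADSD5 C066R040 and 2.19 for FADSD5 C223R038, within 1 SD of the fitted value in each case. The mean over the 6 probes was 2.52 in these fish, beside 2.40 for the mean of the 6 fitted values, of which 2 rest on 3 fish.

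**Figure D3:**
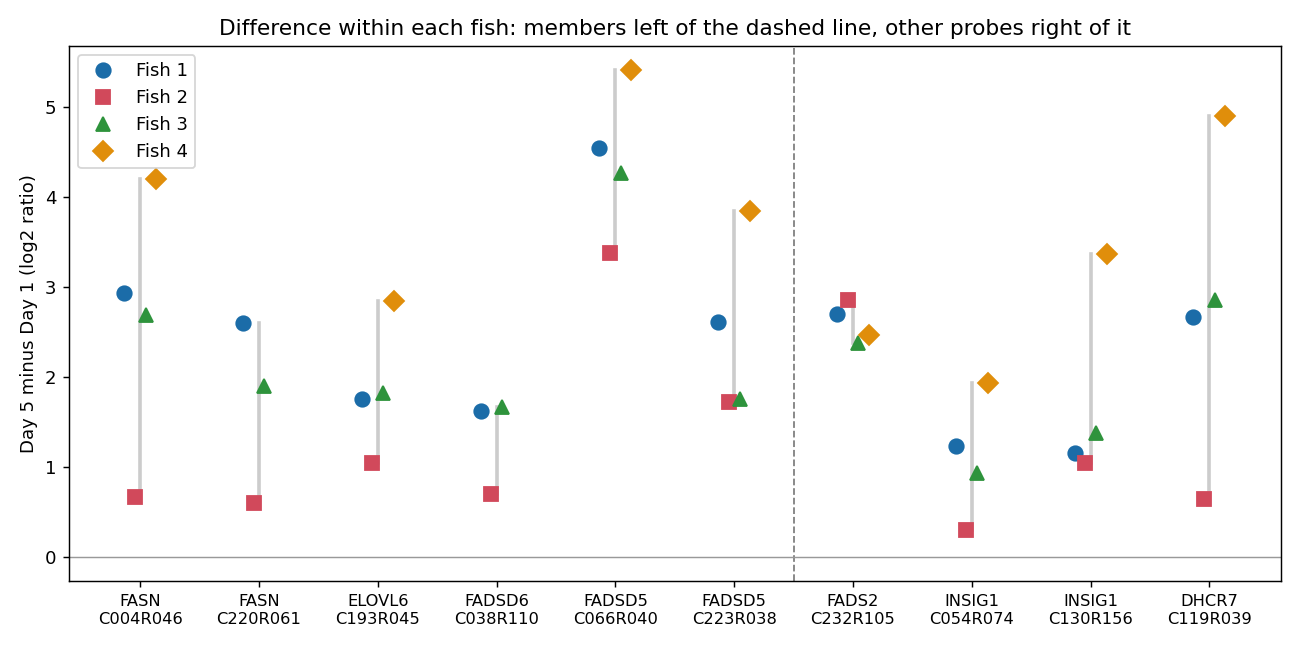
Day 5 minus Day 1 difference of the log2 ratio in each fish (vertical axis) for the 6 member probes (left of the dashed line) and for FADS2, the 2 INSIG1 probes and DHCR7 C119R039 (right); grey bars span the measured fish. Fish 2 is lowest in all 6 members, whereas the 4 fish of FADS2 lie within 0.48 of each other.

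A further desaturase probe, FADS2 C232R105, whose best match was a rainbow trout fatty acid desaturase 2-like transcript, was measured beside the members. Its log2 ratios were 0.86, 1.01, 0.51 and 0.46 in Day 5 HKLs of Fish 1 to Fish 4, against -1.84, -1.85, -1.88 and -2.01 in Day 1 HKLs. The fish lay close together on both days, with SDs of 0.27 at Day 5 and 0.078 at Day 1 (n = 4 each). Its Cy5 signal exceeded the negative-control limit on 4 of 4 Day 5 arrays but on only 2 of 4 Day 1 arrays. Differences of 2.70, 2.86, 2.38 and 2.47 gave a fitted log2 fold change of 2.60 (SE 0.30), past the threshold. Here Fish 2 had the largest difference, unlike in the 6 members. In the deposited processed log2 ratios Fish 3 had the largest for FADS2 (3.40), with 3.27 in Fish 2. The paper gives fads2 as an alias of FADSD6, although the name FADS2 was not used to choose members. The SD of the differences was 0.22 for FADS2, while those of the 6 members ran from 0.55 to 1.47, and whether the spreads differ was not tested.

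Genes around these enzymes were counted in lists of lipid pathways. The gene names come from the authors' annotation of called probes, so the listed probes were themselves selected on these samples, and among the 2083 tested probes with such a name 17.9% were past the threshold on the higher side and 16.2% on the lower side, with a median log2 fold change of 0.58. Of 13 genes that supply or start fatty acid synthesis, 4 were named, with 1 probe each. ME3, a mitochondrial malic enzyme of the kind that produces NADPH, was higher, with a log2 fold change of 2.05 (SE 0.32). MCAT, the malonyl-CoA transferase of mitochondrial fatty acid synthesis, was lower, with -1.87 (SE 0.36). No Day 5 array showed MCAT above the negative-control limit, and no bound is given, since the computed one exceeded the fitted change. ACLY, which makes cytosolic acetyl-CoA from citrate, had differences of 1.22, 0.038, 1.52 and 3.40 in Fish 1 to Fish 4, and SLC25A1, the citrate carrier of the mitochondrion, 0.95, 0.23, 1.58 and 2.16. Neither was past the threshold, and in both Fish 4 had the largest and Fish 2 the smallest difference. ME3 differed by 2.24, 2.29, 1.23 and 2.44 in Fish 1 to Fish 4, with Fish 3 smallest. MCAT differed by -2.94, -1.10, -1.23 and -2.21, with Fish 1 lowest.

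Of 12 genes of the elongation cycle, 2 were named and 0 of their 2 probes were past the threshold. HSD17B12, the ketoacyl-CoA reductase of that cycle, had a log2 fold change of 1.49 (SE 0.37, 3 fish), and HACD4, a dehydratase, had -1.12 (SE 0.31). Among regulators, 1 of 4 probes was past the threshold, the INSIG1 probe C130R156, with 1.74 (SE 0.40). INSIG1 retains the sterol regulatory element-binding proteins in the endoplasmic reticulum when sterols are plentiful. Its differences were 1.16, 1.05, 1.38 and 3.37 in Fish 1 to Fish 4. A second INSIG1 probe, C054R074, differed by 1.24, 0.30, 0.94 and 1.93 and was not past it. That probe was above the negative-control limit on 0 of 4 Day 1 arrays and on 1 of 4 Day 5 arrays.

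Sterol synthesis was the list with the most probes. All 13 tested probes, of 7 genes, had higher fitted values at Day 5, with a median log2 fold change of 1.59, and 5 were past the threshold. These were both probes of DHCR7, which carries out the final step to cholesterol, with log2 fold changes of 2.77 (SE 0.52) and 2.43 (SE 0.44), 2 probes of MSMO1, a sterol demethylase, with 2.19 and 2.23, and a probe of ERG28, an endoplasmic reticulum protein of that pathway, with 1.59. For dhcr7 too, the paper reports a significant rise by RT-qPCR in fish other than those on the arrays. The mean over the 13 probes differed by 1.20, 0.86, 1.74 and 3.03 in Fish 1 to Fish 4. In this mean Fish 2 was thus smallest and Fish 4 largest. It did not hold in every probe, since Fish 1 had the smallest difference in some, among them MSMO1 C208R130 and ERG28 C117R135, both past the threshold.

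Few probes of the lists that use fatty acids were past the threshold. Of 10 glycerolipid and phospholipid probes, 8 had higher and 2 lower fitted values, with a median log2 fold change of 1.10. The median of all named probes was 0.58, with 17.9% past the threshold on the higher side and 16.2% on the lower. Among the 10, 1 was past the threshold on the higher side and 1 on the lower. The first was of MBOAT2, a lysophospholipid acyltransferase, with a log2 fold change of 1.33 (SE 0.30). The other was of AGPAT9L, a glycerol-3-phosphate acyltransferase-like gene, with -1.52 (SE 0.34). Of 8 fatty acid oxidation probes, 0 were past the threshold in limma's fit, 4 had higher and 4 lower fitted values, and the median log2 fold change was 0.21. Their largest value was 1.27 (SE 0.38) for PECR, a peroxisomal enoyl-CoA reductase. It was placed in this list although its step is a reduction, and the counts and the median include it. CPT1A, which admits long-chain fatty acids to mitochondrial oxidation, had -1.19 (SE 0.38). The mean of the oxidation list differed by 0.22, 0.26, 0.0089 and -0.26 in Fish 1 to Fish 4.

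**Figure D4:**
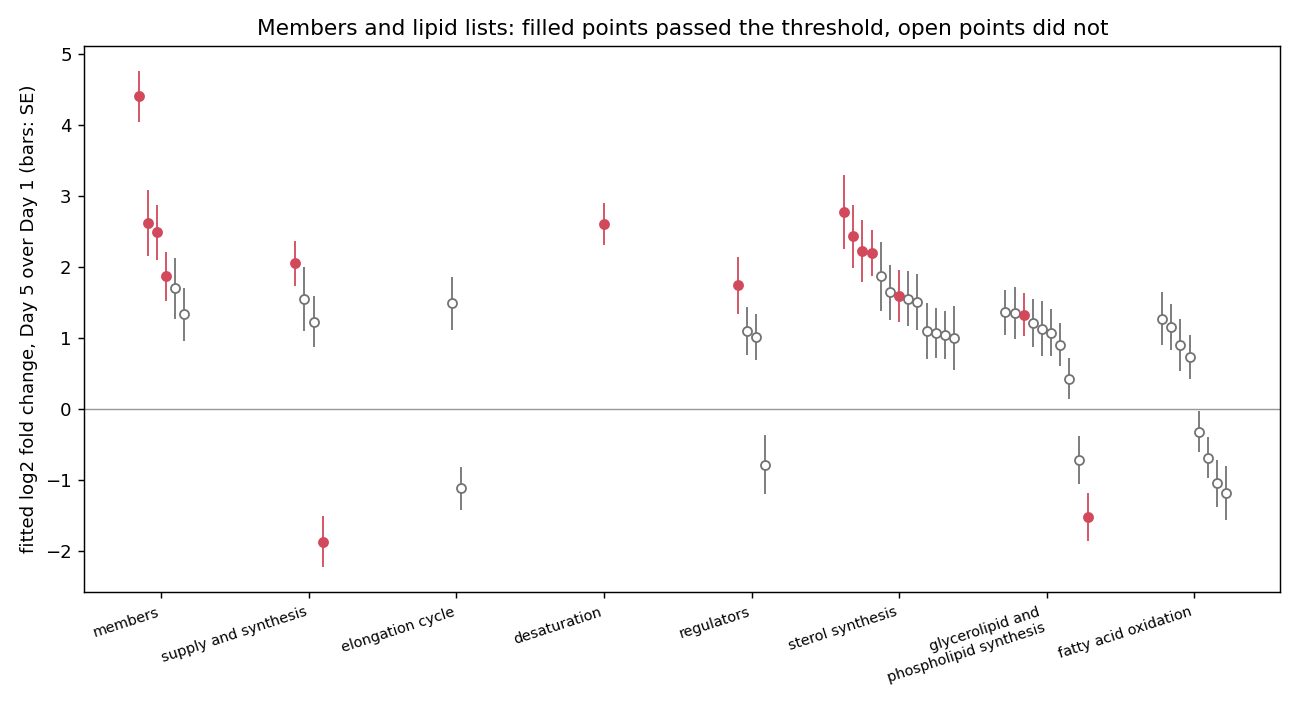
Fitted log2 fold change of Day 5 over Day 1 (vertical axis, bars give the SE) for each tested probe of the members and of 7 lipid lists; filled points were past an adjusted p of 0.05 and open points were not. All 13 sterol synthesis probes lie above 0, whereas the 8 fatty acid oxidation probes lie on both sides of it.

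Likeness to the members was measured as the Pearson correlation with the mean log2 ratio of the 4 complete member probes, over 1683 named probes without missing values. Over the 8 arrays, the highest values among other genes were those of TUBA1A, an alpha tubulin (0.99), LIPG, the endothelial lipase (0.99), RDH12, a retinol dehydrogenase (0.98), BCORL1 (0.98) and TRF (0.98). All named probes had been selected on the difference between the days, which enters these values. After the mean of each day was taken out, the highest were INSIG1 C054R074 (0.99), RDH12 (0.96), DHCR7 (0.95), TUBA1A (0.93) and LIPG (0.92). FADS2 had -0.61. That INSIG1 probe exceeded the negative-control limit on only 1 of 4 Day 5 arrays and on 0 of 4 Day 1 arrays. The DHCR7 probe, C119R039, exceeded it on 1 of 4 Day 1 arrays. Of the 4 member probes in the mean, ELOVL6 and FADSD5 C223R038 exceeded it on 0 of 4 Day 1 arrays, and FADSD5 C066R040 on 1 of 4. The correlations describe 8 arrays of 4 fish that share slides and a reference, and genes are not independent replicates.

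Markers of several cell types were counted in the same fit. All 20 macrophage probes (CSF1R, MRC1, TYROBP, LGMN, GRN and SIGLEC1) had higher fitted values at Day 5, 13 of them past the threshold, with a mean log2 ratio between 0.23 and 0.87 in Day 5 samples and between -1.30 and -0.98 in Day 1 samples. Of 15 erythroid probes 14 were lower and 11 past the threshold, with means between -1.91 and -1.17 at Day 5 and between 0.054 and 1.11 at Day 1. Of 44 B-cell probes 43 were lower and 23 past it, with means between -1.41 and -0.60 at Day 5 and between 0.035 and 0.59 at Day 1. The other B-cell probe, of CD22, was past it on the higher side with a log2 fold change of 2.49. All 7 T-cell probes, 4 of 5 neutrophil probes and 5 of 7 thrombocyte probes had lower fitted values, of which 1, 2 and 0 were past the threshold, and 1 thrombocyte probe, of GFI1B, was past it on the higher side. Among all named probes 17.9% were past it on the higher side and 16.2% on the lower side. The T-cell and thrombocyte counts lie under the lower-side share. Only called probes carry names, so markers that were not called could not be counted. The paper reports marco and MHC II as macrophage markers that its array test did not call. It adds that the authors' earlier work found both significantly higher at Day 5, in the fish used for its RT-qPCR. On all 4 Day 5 arrays, 4 erythroid, 8 B-cell, 2 neutrophil and 2 thrombocyte probes did not exceed the negative-control limit. On all 4 Day 1 arrays, 3 macrophage probes and 1 B-cell probe did not exceed it. Of 3 adipocyte and 3 hepatocyte marker names, 0 were found among the called probes, so these cell types could not be counted. The macrophage list differed by 1.50, 1.85, 1.57 and 1.98 in Fish 1 to Fish 4, so Fish 2 was not the smallest there. The part of these cell types in the values of the members was not tested.

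The member values were larger in the deposited processed log2 ratios, and the count past the threshold varied between settings. The cause was not tested. In the deposited processed log2 ratios, in which missing values had been imputed, the mean difference was 4.19 for ELOVL6, 3.79 for FADSD6, 5.78 for FADSD5 C066R040 and 3.96 for FADSD5 C223R038, each more than 1 SD of the differences above the value from the scanner intensities. FASN C004R046 had 3.11 and C220R061 had 1.99 there. Without Fish 4, 2 of the 6 members were past the threshold, both probes named FADSD5, and without Fish 3 there were 3, with ELOVL6 lost. With all spots kept there were 3, without FASN C004R046, and with plain subtraction of the background there were 0, as for all probes. All 6 had higher fitted values at Day 5 in each of the 13 alternatives.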

How the data were processed

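RNA of 8 samples (4 fish, Day 5 and Day 1, grouped by the day and fish number in the labels) was measured on 8 two-colour 44K salmonid arrays. The authors scanned the slides, extracted the spots with ImaGene and deposited spot signal and background intensity values of both channels, without background correction or normalization. A second deposited table holds the authors' log2 ratios of 18108 probes, which they had corrected for background, normalized by loess, cleared of poor spots and imputed.

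The scanner intensities were analysed here with limma 3.58.1 and statmod 1.5.0 under R 4.3.3. Signal means were corrected with the background medians by normexp (offset 50) and normalized by loess within each array, with control spots at weight 0. Spots with a quality flag were treated as missing, as were those within 2 SD of their local background in Cy5 or Cy3, and a probe entered the fit with at most 2 missing values. limma's lmFit and eBayes were run with a term for fish, because each number stands for 1 animal sampled on both days and the authors' own test was paired, with Benjamini-Hochberg adjustment over all tested probes and a threshold of 0.05. As a check of the pairing, each sample's deviations from its day mean were correlated with those of the other sample of its fish, which gave -0.05 in Fish 1, -0.08 in Fish 2, 0.08 in Fish 3 and 0.03 in Fish 4. The block is therefore kept for the shared animal and not for this check. The number of arrays limits the precision.

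Gene names came from the authors' annotation of 2139 called probes. The members and the gene lists were chosen with earlier results of these data known. Named were all member probes, list probes past the threshold or with the largest change of their list, FADS2, and the 5 genes most like the members by each of 2 correlations. HACD4, ACLY, SLC25A1, the INSIG1 probe C054R074, CPT1A, GFI1B and CD22 were added after their values were seen, except where the correlation named them. Alternatives were other background corrections, normalizations, spot filters, the deposited processed values, no block, slide as a random block, and each fish left out. Contig sequences came from the authors' annotation table, of which 571 contigs were used, and gene neighbours from RefSeq (Ssal_v3.1), used for names and order only.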

Additional observations from a re-analysis of the deposited data

How the results depend on the processing

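The direction of all 6 member probes was the same under every one of the 13 alternatives run. The mean log2 fold change over the 6 probes was 2.40, and moved by more than 1 SD between fish only in the deposited processed values, to 3.80; the cause was not tested. With a fish left out in turn it ran from 2.13 (without Fish 4) to 2.80 (without Fish 2). Median centring gave 0.77 for FADSD6 C038R110, against 1.33, and the processed values moved ELOVL6, FADSD6 and both FADSD5 probes, as given above. Fish 2 had the smallest difference in 6 of 6 members, in 5 of 6 with the processed values and with quantile normalization after loess. Fish 4 had the largest in 4 of 4 members with complete values, but in 3 of 6 with the processed values.

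Of all tested probes, 784 were past the threshold. The number was 0 with plain background subtraction (4217 at an unadjusted p under 0.05) and 0 without background correction (4393). It was 461 with all spots kept, and 2676 with slide as a random block. With a fish left out in turn it ran from 342 (without Fish 4) through 365 (without Fish 3) to 750 (without Fish 1). Median centring called 338 probes higher and 567 lower, a share of 37.3% higher against 53.8%. Without fish as a block, 918 probes and 6 of 6 members were past the threshold, the mean of the members was 2.51, and 10 probes of the lipid lists were past it on the higher side, against 9 with the block. That count was 0 with plain subtraction, 0 without background correction and 20 with the processed values. Of the 6 members, 3 were not above the negative-control limit on any Day 1 array. The part of dim signal in these counts was not tested.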
